A study of Mus musculus with 10 samples.

Results

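The tumour necrosis factor (TNF) superfamily was profiled in the epididymal fat pad (white adipose tissue beside the epididymis) of male C57BL/6J mice on a high-fat diet with 60% fat or on normal chow (CRF-1). Feeding began at 8 weeks of age and lasted 8 weeks, and each group held 5 mice with 1 Affymetrix expression array each. Members were the genes whose probe sets the platform annotation gives exactly 1 symbol, either Tnf or a Tnfsf or Tnfrsf symbol followed by a number. This gave 28 of the 18193 genes tested, read by 47 of 45101 probe sets: 8 ligands, 19 receptors and Tnfsf13os, a transcript antisense to a ligand gene. Each gene was represented by its brightest probe set, the one with the highest mean log2 level over the 10 arrays. Another 3 probe sets are annotated to several family symbols at once and were left out, so the ligands Tnfsf12 and Tnfsf13 have no value. The ligands Tnfsf15 and Tnfsf18 and the decoy receptor Tnfrsf26 had no value either. Changes are log2 differences, high-fat minus chow, each with its standard error (SE) from limma, a linear model fitted across all genes, and a gene is called changed at a Benjamini-Hochberg adjusted p under 0.05.

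TNF superfamily ligands are mostly trimeric proteins anchored in the membrane, and several are released by proteases. Their receptors carry cysteine-rich repeats outside the cell. Inside, some carry a death domain that can recruit caspases, others bind TRAF adaptors that lead to NF-kB, and decoy receptors bind ligand without signalling. In fat, TNF is known as a product of macrophages that lowers insulin signalling in adipocytes.

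The RefSeq promoters (GRCm38.p6) of members that the results turn on are shown first, since NF-kB is a main output of these receptors and regulates many genes of inflammation. They are 160 bases up to an annotated start of the gene, for 6 of the 7 members that rose. No promoter was given for the riser Tnfrsf22. Tnfrsf9, which did not pass the test, is shown as well. Tnfsf13b and Tnfrsf9 have more than 1 listed start, and the first is shown for Tnfsf13b and the second for Tnfrsf9. Capitals mark matches to the motifs searched.
Tnf (chr17:35202008-35202167, minus strand): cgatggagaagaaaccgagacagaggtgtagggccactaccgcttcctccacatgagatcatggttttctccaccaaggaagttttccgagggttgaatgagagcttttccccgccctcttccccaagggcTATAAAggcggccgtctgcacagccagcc
Tnfsf13b (chr8:10006307-10006466, plus strand): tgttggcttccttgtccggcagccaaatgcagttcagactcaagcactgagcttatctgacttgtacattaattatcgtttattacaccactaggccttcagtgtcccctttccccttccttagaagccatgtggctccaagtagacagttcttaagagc
Tnfrsf1b (chr4:145246871-145247030, minus strand): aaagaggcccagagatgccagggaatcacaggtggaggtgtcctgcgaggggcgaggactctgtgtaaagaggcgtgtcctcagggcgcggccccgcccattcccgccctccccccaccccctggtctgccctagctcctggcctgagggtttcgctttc
Tnfrsf13b (chr11:61126595-61126754, plus strand): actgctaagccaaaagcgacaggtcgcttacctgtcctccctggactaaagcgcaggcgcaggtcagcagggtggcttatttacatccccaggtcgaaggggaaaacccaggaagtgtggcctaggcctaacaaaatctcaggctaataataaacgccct
Tnfrsf11a (chr1:105780563-105780722, plus strand): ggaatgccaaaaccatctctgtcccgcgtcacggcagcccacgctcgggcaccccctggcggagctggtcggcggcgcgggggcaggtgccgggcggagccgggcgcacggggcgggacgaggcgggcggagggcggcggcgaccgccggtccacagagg
Tnfrsf23 (chr7:143685876-143686035, minus strand): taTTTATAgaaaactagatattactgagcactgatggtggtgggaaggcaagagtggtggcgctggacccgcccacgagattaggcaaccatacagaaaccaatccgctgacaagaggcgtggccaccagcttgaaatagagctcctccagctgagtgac
Tnfrsf9 (chr4:150927839-150927998, plus strand): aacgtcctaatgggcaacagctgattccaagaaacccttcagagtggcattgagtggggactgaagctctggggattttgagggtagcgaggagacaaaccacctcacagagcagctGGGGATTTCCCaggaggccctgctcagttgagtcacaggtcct
The motifs were the NF-kB consensus, the TATA box TATAAA and the PU.1 core GAGGAAGT, each searched on both strands over 250 bases before the start. A window was given for 22 of the 28 members. Of all 32841 windows, 3.9% held the NF-kB consensus, 12.4% the TATA box and 2.44% the PU.1 core. Among the 6 risers with a window, 0 held the NF-kB consensus and 0 the PU.1 core, and 2 held a TATA box. In Tnf it began 29 bases before the start. In Tnfrsf23 the match was on the opposite strand, printed as TTTATA, and began 158 bases before the start. Tnfrsf9 held 2 NF-kB matches that overlap each other, beginning 43 and 42 bases before its second listed start, and Tnfrsf8 held 1. Members were counted if any of their windows held a match, whereas the percentages are per window. These matches describe letters in the window only. Sites farther upstream were not searched, so a count of 0 does not mean that a gene lacks the motif.

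Of the 28 members, 7 rose on the high-fat diet and 0 fell by the limma test, against 12.9% of all genes higher and 13.1% lower. The risers were the ligands Tnf and Tnfsf13b and the receptors Tnfrsf1b, Tnfrsf13b, Tnfrsf11a, Tnfrsf22 and Tnfrsf23. The share of members that changed in either direction, 25.0%, was near the 25.9% of all genes. The median change was 0.56 over the members and -0.037 over all genes, and 22 of 28 members had a positive change, against 47.8% of all genes. At an unadjusted p under 0.05 there were 11 members higher and 0 lower, against 17.8% of all genes higher and 20% lower. The same 7 members were those whose 5 high-fat arrays all lay above the 5 chow arrays, where 11.5% of all genes did so and 11.0% lay all below. Of the 28 brightest probe sets, 14 had a mean below the median of all probe sets, and these dim members were 6 ligands and 8 receptors. On the log2(value + 16) scale, which compresses dim values, 9 members rose and 0 fell, against 13.1% and 12.3% of all genes, and the added calls were Tnfrsf10b and Tnfrsf17. With the brightest probe set chosen by the mean of the deposited linear intensities, Tnfrsf19 was added as 1 member that fell, against 13.4% of all genes lower. Without chow arrays 1 and 2, 8 members rose and 1 fell, against 18.5% and 19.8% of all genes in that fit.

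**Figure D1:**
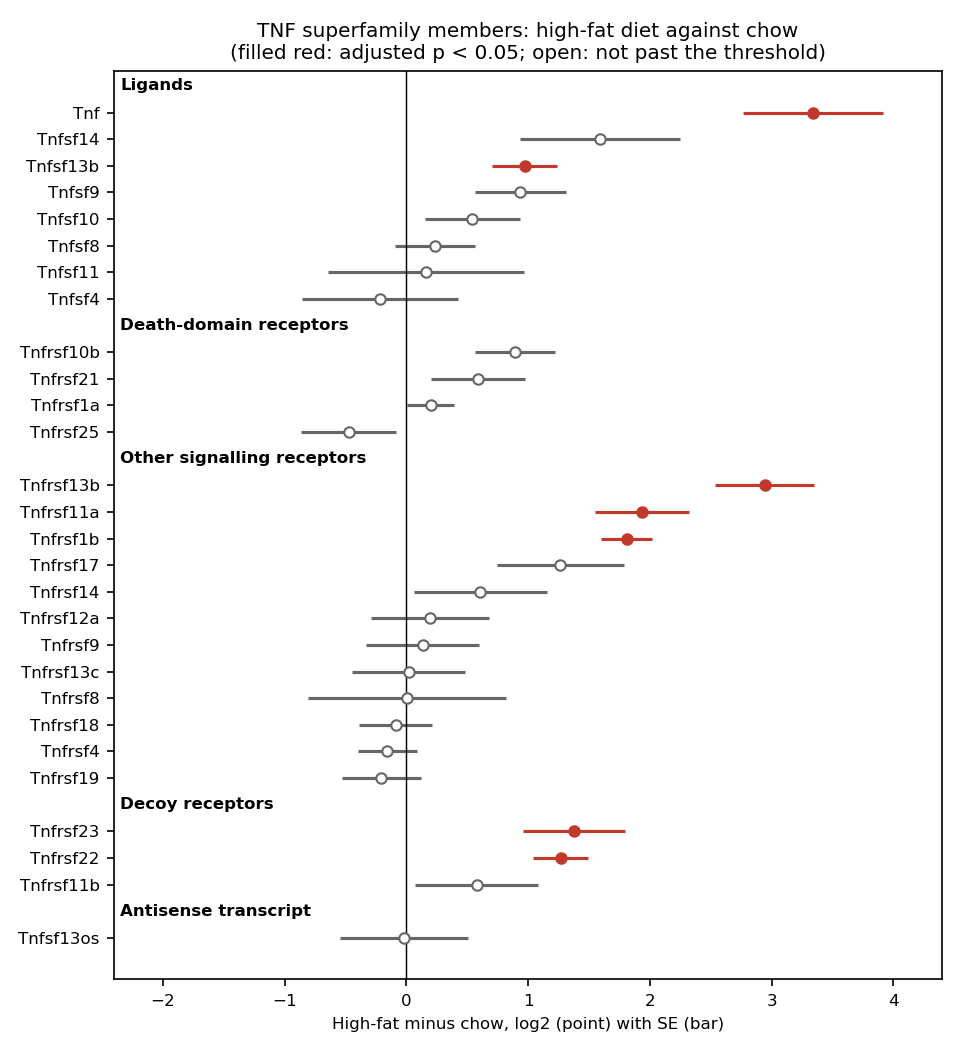
Change of each of the 28 members on the log2 scale (x axis, high-fat minus chow; bars, SE; n = 5 each), grouped by role and sorted within each role. The 7 filled points, from Tnfsf13b at 0.97 to Tnf at 3.34, passed the threshold; the open points, from -0.47 to 1.59, did not.

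The arrays differed in more than diet. For the actin control probe sets, the ratio of 5' to 3' signal ran from 0.557 to 0.643 on the high-fat diet and from 0.272 to 0.456 on chow. All 9 macrophage markers rose, with a summed level of 20574 to 29492 in high-fat arrays and 2061 to 4608 in chow arrays. All 7 epithelial markers were lower, with a summed level of 201 to 326 in high-fat arrays and 1127 to 13333 in chow arrays. All 5 smooth muscle markers were lower too (2716 to 4225, against 6802 to 29287). Of 9 epididymis and testis genes 5 were lower, against 13.1% of all genes. The summed level of all 9 was 181 to 452 in high-fat arrays and 1503 to 30566 in chow arrays. Chow arrays 1 and 2 had the lowest means of the adipocyte markers (10.72 and 9.92) and of the endothelial markers (7.53 and 6.75) of all 10 arrays. Fewer cells of a type and less RNA per cell cannot be told apart in bulk tissue. The part of these differences in the results on members was not tested. The SD was larger on chow than on the high-fat diet for 21 of 28 members (75.0%), as it was for 76.8% of all genes.

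Tnf, the founding cytokine of the family, rose on the high-fat diet. Its log2 level was 5.10, 4.87, 4.996, 4.34 and 4.63 in high-fat arrays 1 to 5, against 3.57, 1.05, 1.34, 0.019 and 1.26 in chow arrays 1 to 5. No high-fat array overlapped chow, and chow array 1 stood well above the other chow arrays. The difference was 3.34 (SE 0.58, limma adjusted p = 0.00185; 2-sided exact permutation p = 0.00794, the smallest that 5 against 5 arrays allow, and the same for the other 6 risers). The transcript was dim. Its deposited intensities were 16.2 to 36.5 in high-fat arrays and 1.11 to 11.9 in chow arrays, where the median probe set of an array read 17.9 to 27.4. On the log2(value + 16) scale, Tnf rose by 1.16 (limma adjusted p = 0.0004). Without chow array 1 the difference was 3.87.

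Of the TNF receptors, Tnfrsf1b passed the limma test and Tnfrsf1a did not. Tnfrsf1b, the receptor TNFR2 that lacks a death domain and is abundant on immune and endothelial cells, read 8.48, 8.62, 9.21, 9.03 and 9.01 in high-fat arrays, against 6.57, 6.85, 7.27, 6.98 and 7.64 in chow arrays. The groups were apart, and Tnfrsf1b rose by 1.81, a fold of 3.51 (SE 0.21, limma adjusted p = 0.000166). Its other, dim probe set differed by 1.11 (adjusted p over all probe sets = 0.0684). Tnfrsf1a, the death-domain receptor TNFR1 of most cell types, read 9.97, 10.002, 9.89, 10.05 and 9.92 in high-fat arrays, against 9.47, 9.13, 9.86, 10.09 and 10.28 in chow arrays. Its high-fat arrays lay within the chow range, with the lowest levels in chow arrays 1 and 2. Tnfrsf1a differed by 0.20 (95% interval -0.23 to 0.63, limma adjusted p = 0.503), and its sign turned without chow arrays 1 and 2 (-0.11) and with array weights (-0.044). It rose by 0.66 once arrays were centred on their medians (adjusted p = 0.0259), which moved the median change of all genes to 0.21. The difference between these receptors' changes was not tested.

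The BAFF system, which supports B cell survival, had 1 ligand and 1 receptor that rose. Tnfsf13b, which encodes BAFF, read 5.55, 5.80, 6.02, 5.49 and 5.93 in high-fat arrays, against 4.62, 4.03, 5.07, 4.87 and 5.35 in chow arrays. The lowest high-fat array lay just above the highest chow array, and the rise was 0.97 (SE 0.27, limma adjusted p = 0.0209). The call was lost without high-fat array 3 (adjusted p = 0.0565) or 5 (0.0540) and with the mean of its 3 probe sets (0.53, adjusted p = 0.231) or the most variable of them (0.43, adjusted p = 0.676). Its other probe sets differed by 0.19 and 0.43 (adjusted p over all probe sets 0.817 and 0.669). Tnfrsf13b, the receptor TACI for BAFF and the related ligand APRIL, had levels of 6.31, 6.67, 7.01, 6.44 and 6.82 in high-fat arrays, against 2.72, 4.05, 2.69, 4.39 and 4.67 in chow arrays. The groups did not overlap, and the rise was 2.94 (SE 0.41, limma adjusted p = 0.000501), and 1.94 on the log2(value + 16) scale. Tnfrsf13c, the BAFF receptor of mature B cells, differed by 0.020 (95% interval -1.002 to 1.04, adjusted p = 0.981). Tnfrsf17, the plasma cell receptor BCMA, differed by 1.26 and did not pass (SE 0.52, adjusted p = 0.101). It was lowest in chow array 5 (0.90). It passed on the log2(value + 16) scale (0.46, adjusted p = 0.0494), with array weights (1.62, adjusted p = 0.0184) and without chow arrays 1 and 2 (1.75, adjusted p = 0.0294). Of 5 B cell markers 3 rose in the same arrays, against 12.9% of all genes. The summed level of all 5 was 218 to 254 in high-fat arrays and 48.4 to 92.0 in chow arrays. The B cell markers Cd79a (-1.72, limma adjusted p = 0.151) and Ms4a1 (0.75, adjusted p = 0.174) did not pass.

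Of the RANK system, which drives osteoclast formation and is also used by myeloid and epithelial cells, only the signalling receptor passed the test. Tnfrsf11a, which encodes RANK, read 5.69, 5.86, 6.45, 6.30 and 6.22 in high-fat arrays, against 5.11, 3.32, 4.92, 3.32 and 4.17 in chow arrays. All high-fat arrays were above chow, by 1.93 on average (SE 0.39, limma adjusted p = 0.00423) and by 1.27 on the log2(value + 16) scale. Its other probe set rose by 2.82 (adjusted p over all probe sets = 7.08e-05). Its ligand Tnfsf11, RANKL, was at the floor of the scale in 2 high-fat and 2 chow arrays and differed by 0.16 (95% interval -1.62 to 1.94). Tnfrsf11b, the soluble decoy osteoprotegerin, differed by 0.58 (95% interval -0.53 to 1.68, adjusted p = 0.446).

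The mouse membrane decoys for the death ligand TRAIL, Tnfrsf22 and Tnfrsf23, both rose. Tnfrsf22 had the smallest SD of the 7 risers on the high-fat diet (0.031), with levels of 5.39, 5.41, 5.42, 5.36 and 5.34, against 4.06, 3.69, 4.61, 3.93 and 4.30 in chow arrays. Its rise was 1.27 (SE 0.23, limma adjusted p = 0.00242), and 0.78 on the log2(value + 16) scale. The further probe sets of Tnfrsf22 had differences of 1.44 and 1.31, short of the threshold (adjusted p over all probe sets 0.231 and 0.154). Tnfrsf23 was dim, with levels of 3.93, 4.04, 4.20, 4.69 and 4.35 in high-fat arrays, against 3.24, 2.32, 1.67, 3.75 and 3.32 in chow arrays. The groups did not overlap, and the rise was 1.38 (SE 0.42, limma adjusted p = 0.0337), with 0.55 on the log2(value + 16) scale. This call was lost on leaving out any of the 5 high-fat arrays, chow array 2 or chow array 3 (adjusted p 0.0504 to 0.0815), and without chow arrays 1 and 2 together (0.0533). The genes are close relatives on chromosome 7, and 1 probe set outside the rule is annotated to both, so their signals may not be separate. Tnfrsf10b, the signalling TRAIL receptor, had a positive difference of 0.89 that did not pass (SE 0.33, limma adjusted p = 0.0705). It passed on the log2(value + 16) scale (0.34, adjusted p = 0.0442) and without the variance trend (0.89, adjusted p = 0.0263).

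**Figure D2:**
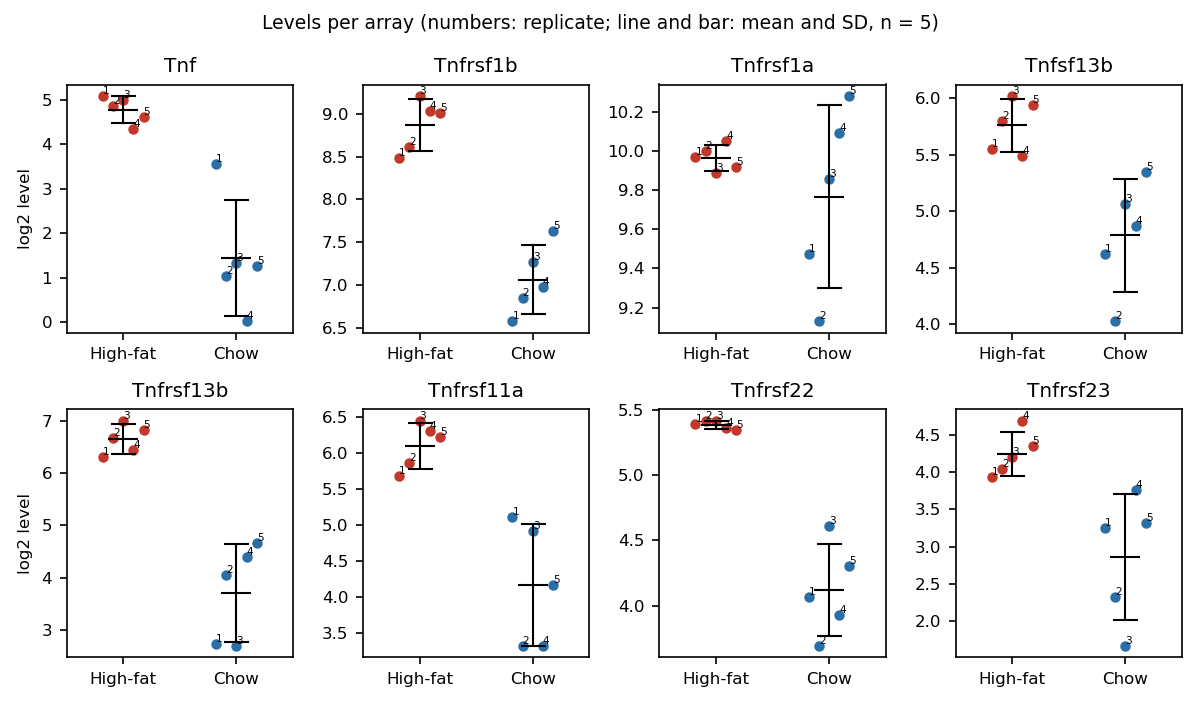
Log2 level per array (y axis) of Tnf, its receptors Tnfrsf1b and Tnfrsf1a, and the other risers, with high-fat arrays in red on the left and chow arrays in blue on the right (numbers, replicate; line and bar, mean and SD, n = 5). The groups are apart in every panel except Tnfrsf1a, whose high-fat arrays at 9.89 to 10.05 lie within the chow range of 9.13 to 10.28.

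The remaining ligands did not pass the test. Tnfsf10, which encodes TRAIL, read 6.71, 7.08, 6.70, 6.53 and 6.46 in high-fat arrays, against 5.05, 5.36, 6.23, 7.07 and 7.05 in chow arrays. Chow arrays 1 and 2 were the lowest, as for both the adipocyte and the endothelial markers, and the difference was 0.54 (adjusted p = 0.346). A second Tnfsf10 probe set rose by 0.83 (adjusted p over all probe sets = 0.0450). Tnfsf9, the ligand of the T cell costimulator 4-1BB, differed by 0.94 (SE 0.37, adjusted p = 0.0882) and Tnfsf14, which encodes LIGHT, by 1.59 (SE 0.66, adjusted p = 0.101). Tnfsf14 was very dim, with 2 chow arrays at the floor, and it passed only without chow array 4 among the arrays left out in turn (1.96, adjusted p = 0.0489). Tnfsf4, the OX40 ligand, and Tnfsf8, the CD30 ligand, differed by -0.21 and 0.23, with 95% intervals of -1.62 to 1.20 and -0.49 to 0.96.

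The lymphocyte costimulatory receptors showed small differences. Tnfrsf4, Tnfrsf18, Tnfrsf9 and Tnfrsf8, which encode OX40, GITR, 4-1BB and CD30, differed by -0.16, -0.088, 0.13 and 0.0043, and none passed. The intervals for Tnfrsf4 (-0.69 to 0.38) and Tnfrsf18 (-0.74 to 0.57) leave out a change of 2-fold in either direction, and those for Tnfrsf9 (-0.88 to 1.15) and Tnfrsf8 (-1.79 to 1.80) do not. Tnfrsf14, the receptor HVEM, was very dim, with levels of -0.37 to 1.60 in high-fat arrays and -0.60 to 0.88 in chow arrays, and differed by 0.61 (adjusted p = 0.464). Tnfsf13os differed by -0.020 and did not pass. Of 10 T and NK cell markers, 3 rose, against 12.9% of all genes.

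Several receptors split the chow arrays, a pattern picked out after the values were seen. Tnfrsf21, the death receptor DR6, read 8.50, 8.25, 8.52, 8.31 and 8.28 in high-fat arrays, against 9.08, 8.58, 7.12, 7.10 and 7.04 in chow arrays. The high-fat arrays were alike and lay between the high chow arrays 1 and 2 and the low chow arrays 3 to 5. Over all arrays the difference was 0.59 (limma adjusted p = 0.300), and without chow arrays 1 and 2 it was 1.29 (adjusted p = 9.54e-06). The epithelial marker mean was also highest in chow arrays 1 and 2 (10.42 and 10.32), but in chow arrays 3 to 5 (8.44, 7.80 and 6.96) it remained above the high-fat arrays (4.09 to 4.77). Among chow arrays, Tnfrsf25, the death receptor DR3, had the opposite order, with 5.29, 5.01, 4.397, 4.85 and 4.82 in high-fat arrays, against 4.61, 4.28, 6.05, 6.14 and 5.65 in chow arrays. The high-fat arrays lay below chow arrays 3 to 5 and overlapped chow array 1. Tnfrsf25 differed by -0.47 over all arrays (adjusted p = 0.414) and by -1.08 without chow arrays 1 and 2 (adjusted p = 0.00591). The endothelial marker mean was also low in chow arrays 1 and 2 (7.53 and 6.75). It was high in chow arrays 3 to 5 (9.47, 9.11 and 9.14). Its high-fat arrays (7.88 to 8.55) lay between these, and unlike for Tnfrsf25 all were above chow array 1. Tnfrsf12a, the receptor Fn14 of the ligand TWEAK, was low in chow array 1 alone (5.28), against 7.72 to 8.29 in the other chow arrays and 6.94 to 7.92 in high-fat arrays.

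**Figure D3:**
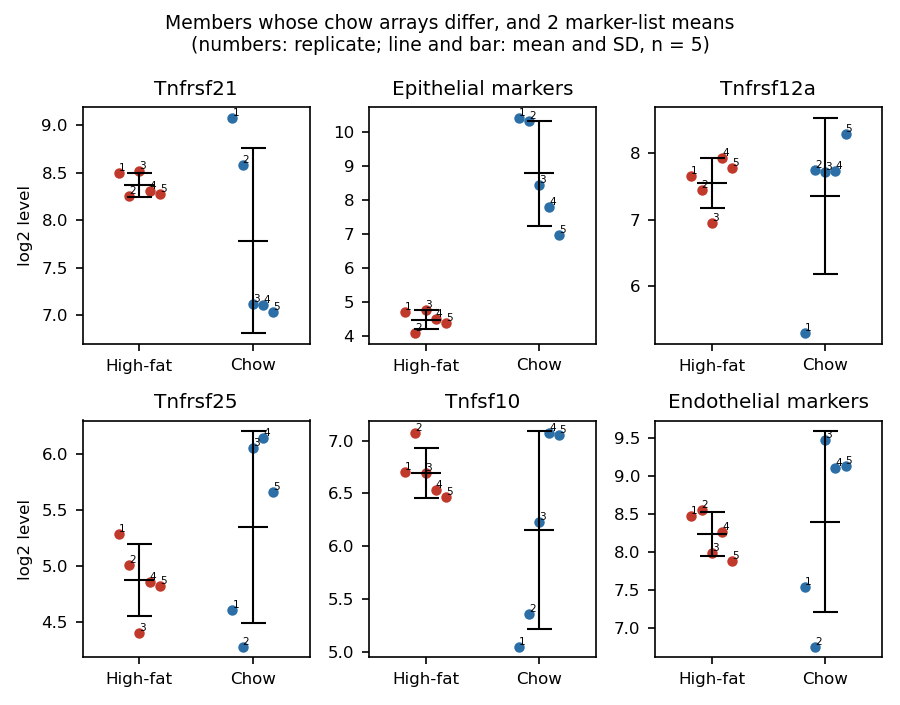
Log2 level per array (y axis) of Tnfrsf21, Tnfrsf12a, Tnfrsf25 and Tnfsf10 beside the means of the epithelial and endothelial marker lists, with high-fat arrays in red on the left and chow arrays in blue on the right (numbers, replicate; line and bar, mean and SD, n = 5). Among the chow arrays, arrays 1 and 2 are the highest of Tnfrsf21 and the lowest of Tnfrsf25 and Tnfsf10.

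Some members gave different results from their different probe sets. Of 19 further probe sets of 14 members, 17 had the sign of the one used, and 3 passed over all 34945 probe sets, those of Tnfrsf11a, Tnfsf10 and Tnfrsf19. The share of all probe sets that passed is not given here, so this count cannot be set against it. Tnfrsf19, the receptor TROY, differed by -0.20 with the probe set used (adjusted p = 0.692). Its probe set with the highest mean linear intensity read 2.69, -0.60, 1.34, 0.91 and -0.60 in high-fat arrays, against 5.91, 7.10, 4.96, 3.29 and 3.02 in chow arrays. All high-fat arrays were below chow, and it fell by 4.11 (SE 0.89, adjusted p over all probe sets = 0.00734). High-fat arrays 2 and 5 were at the floor of the scale, so the size depends on the floor, and on the log2(value + 16) scale the difference was -1.48 (adjusted p over all probe sets = 0.0354). Chow array 2 was the highest, as it was for the mean of the epididymis and testis genes (11.22). Chow array 5 was the lowest of the chow arrays for both. Chow array 1 was above chow array 3 for this probe set, but below it for that mean (7.86 and 9.25). The epithelial marker mean was 10.42, 10.32, 8.44, 7.80 and 6.96 in chow arrays 1 to 5. The part of these genes in the Tnfrsf19 result was not tested.

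**Figure D4:**
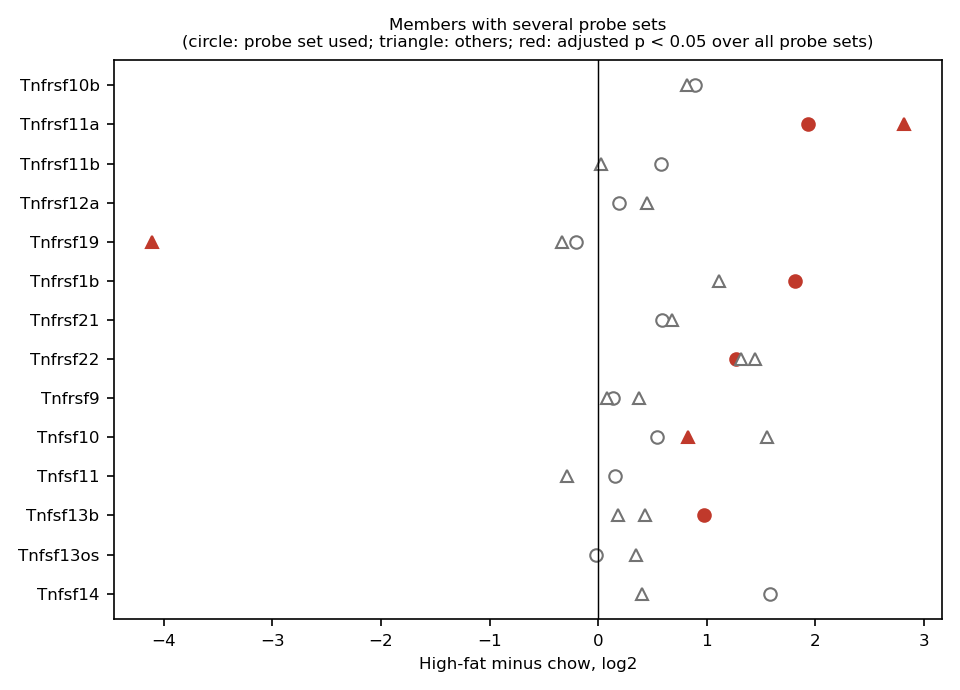
Change on the log2 scale (x axis, high-fat minus chow) of each probe set of the 14 members that have several (circle, probe set used; triangle, others; red, past the threshold over all probe sets). The Tnfrsf19 triangle at -4.11 is the probe set that differs most from the one used.

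Outside the symbol rule, 14 family members carry other names, and 3 of them rose and 0 fell, against 12.9% and 13.1% of all genes. These were Cd40, the costimulatory receptor of B cells and macrophages (1.12, SE 0.32, adjusted p = 0.0246), and the ectodysplasin system's ligand Eda (0.85, SE 0.27, adjusted p = 0.0386) and receptor Eda2r (1.94, SE 0.64, adjusted p = 0.0470). Eda2r was dim, and its rise was 0.88 on the log2(value + 16) scale. Without chow arrays 1 and 2 the adjusted p was 0.0628 for Cd40 and 0.101 for Eda. The lymphotoxin beta receptor Ltbr differed by 0.28 and the death receptor Fas by 0.17, and neither passed.

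Of 76 other genes of the family and pathway, 22 rose and 5 fell, against 12.9% and 13.1% of all genes. After centring arrays on their medians the counts were 34 and 2, against 24.3% of all genes higher and 7.92% lower. Without high-fat array 1, 2 or 3 the number that rose was 14 each time, against 11.1%, 10.5% and 10.4% of all genes. Among 27 adaptors, kinases and ubiquitin enzymes, 7 rose and 3 fell, against the same 12.9% and 13.1% of all genes. The median change of the 27 was 0.10. Ikbke, an IKK-related kinase, rose by 1.83 (SE 0.21), the TRAF-binding Tank by 1.20 (SE 0.28), the necroptosis effector Mlkl by 1.13 (SE 0.32), Traf5 by 0.85 and the death-domain adaptor Fadd by 0.70. The ubiquitin ligase gene Birc2, which encodes cIAP1, fell by 0.80 (SE 0.10, adjusted p = 0.000228).

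NF-kB genes and inhibitors moved in both directions. Of 9 measured, 5 rose and 1 fell, against 12.9% and 13.1% of all genes. The median change of the 9 was 0.80. Tnfaip3, the ubiquitin-editing inhibitor A20, rose by 1.18 (SE 0.12, limma adjusted p = 5.99e-05), the inhibitor Nfkbie by 0.97, Bcl3 by 0.94 and the subunit Nfkb2 by 0.80. Bcl3 lost its call without chow arrays 1 and 2 (adjusted p = 0.0853). The subunit Rel rose by 2.70 (SE 0.64), and by 0.94 on the log2(value + 16) scale, since it was dim. Nfkbia, the main inhibitor that TNF signalling degrades and then induces, fell by 0.58 (SE 0.13, adjusted p = 0.00689).

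Of 7 genes of ligand shedding and processing, 2 rose and 0 fell, against 12.9% and 13.1% of all genes. Adam17, the protease that cleaves TNF off the cell surface, was higher by 1.24 (SE 0.15, limma adjusted p = 0.000236), and Frmd8, a binding partner that keeps its iRhom cofactors at the cell surface, by 1.02 (SE 0.16, adjusted p = 0.00101). The iRhom genes Rhbdf1 and Rhbdf2 differed by -0.085 and -0.13 and did not pass.

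Of 19 genes commonly induced by TNF, 5 rose and 1 fell, against 12.9% and 13.1% of all genes. The median change of the 19 was 0.71. The monocyte attractant Ccl2 rose by 4.62 (SE 0.39), the neutrophil attractant Cxcl2 by 3.05 (SE 0.30), and by 1.86 on the log2(value + 16) scale, Tnfaip2 by 1.19, the T cell attractant Ccl5 by 1.01 and the mitochondrial dismutase Sod2 by 0.80. Ptgs2, the inducible cyclooxygenase, fell by 5.36 (SE 0.78). Its level was 4.09 to 5.75 in high-fat arrays, against 12.97, 10.50, 10.09, 8.54 and 8.24 in chow arrays 1 to 5. The mean of the smooth muscle markers was 6.402 to 7.62 in high-fat arrays. In chow arrays 1 to 5 it was 12.35, 9.98, 9.92, 9.29 and 9.13, the same order of chow arrays. The epithelial marker mean also had this order in chow (10.42, 10.32, 8.44, 7.80 and 6.96) and was 4.09 to 4.77 in high-fat arrays. The part of either marker list in the Ptgs2 result was not tested. The adhesion molecules Icam1 and Vcam1 differed by 0.18 and 0.23 and did not pass.

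**Figure D5:**
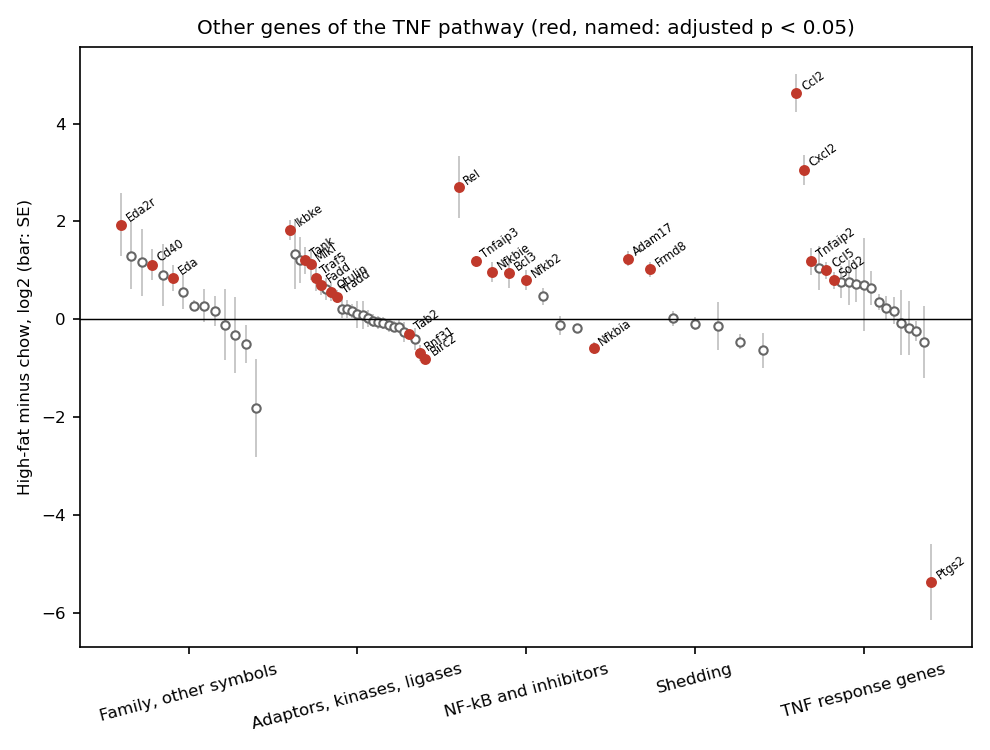
Change on the log2 scale (y axis, high-fat minus chow; bars, SE; n = 5 each) of the other genes of the TNF pathway, sorted within each of 5 lists. Red named points passed the threshold, from Ptgs2 at -5.36 to Ccl2 at 4.62.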

How the data were processed

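Expression in 10 arrays, 5 high-fat and 5 chow, was taken from the deposited table of linear intensities, 1 for each of 45101 probe sets. Per the labels' protocols the authors made biotin-labelled cRNA from each mouse; how probe signals were summarised and scaled is not stated in the labels. Array medians of the deposited intensity differed (17.9 to 27.4). Values were raised to a floor at their 5th percentile (0.658), log2 transformed and quantile normalized. Gene symbols came from the array's platform annotation (34958 with 1 symbol, 932 with several, 9211 not listed), 64 control probe sets were left out, and 18193 genes entered 1 fit in R 4.3.3 with limma 3.58.1 (lmFit, eBayes with trend, Benjamini-Hochberg over all genes, threshold 0.05). Single values also had a 2-sided exact permutation test. Members, lists and tests were chosen with earlier results of these data known.

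All members are named or counted, levels per array are given for those that passed and for Tnf, Tnfrsf1a and Tnfrsf1b, and of each pathway list up to 6 genes past the threshold with the largest changes are named; others named were chosen after their values were seen. Promoters were matched by gene ID for 22 members. On simulated data for this comparison (18193 genes), the test found 60% of simulated log2 changes of 1 and 85% of those of 2. Of its 151 calls, 6 were false. Recovery is not given separately for dim genes, which are 14 of the 28 members. Alternatives covered normalization, floor, pseudocount, probe set choice, variance model, array weights, replicate block and arrays left out; leaving out chow arrays 1 and 2 and choosing probe sets by linear intensity were added after the data were seen. P-values set the difference between the groups against the spread between mice, whose number sets the precision. They do not separate diet from the other differences between the groups of arrays.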

Additional observations from a re-analysis of the deposited data

Results flagged for a closer look

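In 56 groups of 5 arrays (28 members on each diet), 5 held an array whose gap to its nearest neighbour took most of the group's range; chance gives about 1 in 20 groups. Tnfrsf12a was lowest in chow array 1, at 5.28, with the nearest chow array at 7.72. Tnfsf4 was also lowest in chow array 1, at 2.29, with the nearest at 3.32. Tnfrsf18 was highest in chow array 2, at 5.46, with the nearest at 4.58. Tnfsf11 was highest in chow array 4, at 2.76, with the nearest at 0.042, close to the floor. Tnfrsf9 was lowest in high-fat array 4, at 1.95, with the nearest at 3.37. The call of each of these 5 members stayed outside the threshold under every alternative run.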

How the results depend on the processing

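Tnf, Tnfrsf1b, Tnfrsf13b and Tnfrsf11a rose under every alternative that gave a value. Tnf had none among genes above the median only. Tnfrsf22 lost its call with the mean of its probe sets (1.34, adjusted p = 0.0777) and with the most variable one (1.44, adjusted p = 0.236), and Tnfrsf23 also lost its for the values as deposited (1.21, adjusted p = 0.0657). The number of members higher was 9 with log2(value + 16). With 1 array left out in turn there were 5 to 8 members higher and 0 lower, and 14 to 22 pathway genes higher and 4 to 7 lower. The number of members that fell was 1 with probe sets averaged, with the most variable probe set, the brightest by linear intensity, array weights, or without chow arrays 1 and 2; in the last fit and with array weights it was Tnfrsf25, otherwise Tnfrsf19. The pathway genes that fell, 5 in all, were 2 for the values as deposited and with arrays centred on their medians (34 higher), 3 with probe sets averaged, 10 with array weights and 9 without chow arrays 1 and 2. Replicate numbers are shared by the diets, but same-numbered arrays did not deviate together (correlations -0.020 to 0.0056). With the replicate number as a block, 6 members and 12 pathway genes were higher, and Tnfrsf23 lost its call (adjusted p = 0.0532). Array centring moved the median change of all genes from -0.037 to 0.21. The cause of these shifts was not tested. Signs turned only for members that passed in neither of the fits compared. For the values as deposited the differences that turned were Tnfrsf13c -0.17, Tnfrsf8 -0.22, Tnfrsf9 -0.055. With arrays centred on their medians the differences that turned were Tnfrsf13c -0.034, Tnfrsf8 -0.085. With log2(value + 16) the differences that turned were Tnfrsf13c -0.0047, Tnfrsf8 -0.010, Tnfsf11 -0.0013, Tnfsf4 0.019. With the floor at the 10th percentile the differences that turned were Tnfrsf8 -0.12, Tnfsf11 -0.075. With probe sets averaged the differences that turned were Tnfsf11 -0.066, Tnfsf13os 0.17. With the most variable probe set the difference that turned was Tnfsf13os 0.35. With array weights the differences that turned were Tnfrsf12a -0.18, Tnfrsf13c -0.32, Tnfrsf18 0.099, Tnfrsf1a -0.044, Tnfrsf8 -0.64, Tnfrsf9 -0.087, Tnfsf11 -0.44, Tnfsf13os 0.60. Without chow arrays 1 and 2 the differences that turned were Tnfrsf11b -0.0051, Tnfrsf12a -0.36, Tnfrsf13c -0.51, Tnfrsf18 0.13, Tnfrsf1a -0.11, Tnfrsf8 -0.88, Tnfrsf9 -0.14, Tnfsf10 -0.090, Tnfsf11 -0.36, Tnfsf13os 0.74. With 1 array left out the ranges of such members were Tnfsf13os -0.35 to 0.29, Tnfrsf13c -0.19 to 0.28, Tnfrsf8 -0.55 to 0.40, Tnfsf11 -0.34 to 0.80, Tnfrsf9 -0.080 to 0.48, Tnfsf4 -0.52 to 0.25, Tnfrsf18 -0.21 to 0.12, Tnfrsf12a -0.32 to 0.43.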
